A study of Mus musculus with 10 samples.

Results

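The epithelial-mesenchymal transition is run by a small set of regulators, and 10 of them were followed in mouse bile duct cells grown in 2 kinds of matrix. They were taken by gene symbol from the deposited counts, where all 10 were present among 18407 genes. NMC cells, a line derived from mouse cholangiocytes (bile duct epithelium), had been kept for 6 days as 3D double spheroids. The tested matrix was a mixture of laminin and collagen I at 3:1 by volume (5 libraries), and the other was collagen I alone at 1 mg/mL (5 libraries). Both groups thus met collagen I, and neither received any other treatment. All libraries came from the same line. They are called biological replicates, but whether they were separate cultures is not said, and the p-values cover only the spread among these libraries. The question was whether the matrix goes with a difference in the transition programme.

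The transition is the process by which epithelial cells loosen their junctions and take on mesenchymal traits. The zinc-finger and helix-loop-helix factors Snai1, Snai2, Zeb1, Zeb2 and Twist1 repress epithelial genes such as E-cadherin (Cdh1) by binding E-box motifs in their control regions, and N-cadherin (Cdh2) is a common mark of the mesenchymal end. Ovol1 and Grhl2 are transcription factors that hold the epithelial state, and Grhl2 and Zeb1 are known to repress each other. Esrp1 and Esrp2 are epithelial splicing regulators, which favour the epithelial isoforms of Fgfr2, Cd44, Ctnnd1 and Enah and are themselves repressed by Zeb factors. In liver, cholangiocytes keep an epithelial phenotype, and these factors are studied there mostly in fibrosis and in bile duct cancer.

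The E-box read by these repressors is short, and 3 promoters show it present singly, paired and absent. The windows run from 250 bases before to 50 bases after the start, 5′ to 3′ on the gene's strand, from RefSeq on GRCm38.p6. Capitals mark CACCTG or its reverse complement CAGGTG, the only letters searched. Snai1 lies on the plus strand at chr2:167537945-167538244, Epcam on the plus strand at chr17:87635729-87636028 and Twist1 on the plus strand at chr12:33957421-33957720.
Snai1: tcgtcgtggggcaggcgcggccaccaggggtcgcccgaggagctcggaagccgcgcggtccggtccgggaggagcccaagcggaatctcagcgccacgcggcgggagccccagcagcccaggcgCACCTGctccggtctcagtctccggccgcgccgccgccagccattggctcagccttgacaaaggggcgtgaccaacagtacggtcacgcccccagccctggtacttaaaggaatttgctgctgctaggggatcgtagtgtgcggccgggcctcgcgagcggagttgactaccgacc
Epcam: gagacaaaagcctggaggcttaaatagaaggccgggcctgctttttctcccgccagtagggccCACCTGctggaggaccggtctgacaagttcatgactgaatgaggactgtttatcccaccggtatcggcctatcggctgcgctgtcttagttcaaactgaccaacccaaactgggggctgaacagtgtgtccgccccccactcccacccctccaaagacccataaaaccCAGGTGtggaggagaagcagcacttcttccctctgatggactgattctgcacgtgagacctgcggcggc
Twist1: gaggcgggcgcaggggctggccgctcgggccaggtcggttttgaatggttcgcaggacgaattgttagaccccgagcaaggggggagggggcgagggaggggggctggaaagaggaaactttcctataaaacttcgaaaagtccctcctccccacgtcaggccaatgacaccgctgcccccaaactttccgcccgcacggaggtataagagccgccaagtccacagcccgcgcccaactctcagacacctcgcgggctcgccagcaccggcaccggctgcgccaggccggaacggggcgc

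The Snai1 window held 1 match, starting 126 bases before the start, and the Epcam window held 2, starting 187 and 19 bases before it. Neither the Twist1 window nor any of the 4 windows of Zeb2 held the letters, which says nothing of binding elsewhere. Of all 32851 promoters of the same 300 bases, 20.2% held a match, so a match is common. Promoters of the other members were not used here.

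Total counts ran from 4424725 to 7468219 in the laminin-rich matrix and from 4913441 to 8129979 in collagen I, and a count of 0 in a library allows a level of up to 0.369 to 0.678 CPM (3 counts on the CPM scale of that library, where CPM is a count scaled by the library total; counting error only). The cells carried the cholangiocyte markers Krt19 (702 to 1317 CPM in laminin, 768 to 1562 CPM in collagen), Spp1, Epcam and Sox9, while Krt7, Cftr and Onecut1 were low. Of 11 fibroblast and stellate markers, Thy1 and Lrat were at 0 in every library. The sum was 23.7 to 58.7 CPM in laminin and 25.9 to 34.3 CPM in collagen, with its highest value in laminin replicate 4. The sum hides opposite differences. Pdgfrb was at 1.21 to 6.15 CPM in laminin and 0.423 to 0.817 CPM in collagen. Dcn was at 2.26 to 5.36 CPM in laminin and 6.35 to 9.57 CPM in collagen. Endothelial markers summed to at most 0.919 CPM, with Cdh5, Kdr and Emcn at 0. Leukocyte markers summed to 3.08 to 5.51 CPM in laminin and 3.69 to 8.14 CPM in collagen, nearly all of it Cd68, with Adgre1 at 0. Hepatocyte markers, led by Hnf4a, summed to 130 to 188 CPM in laminin and 88.5 to 136 CPM in collagen, with Cyp2e1 at 0. Alb was at 15.4 to 63.4 CPM in laminin and 12.6 to 25.95 CPM in collagen. Ttr was at 5.09 to 15.2 CPM in laminin and 2.68 to 14.04 CPM in collagen. Apoa1 was low and had the higher mean in collagen, at 0.678 to 1.78 CPM in laminin and 1.24 to 4.07 CPM in collagen. The part of all these markers in the results was not tested.

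No member differed between the matrices beyond the spread between libraries. Of the 10 members, 8 passed the filter on low counts and 0 of these 8 passed in edgeR (quasi-likelihood F test, Benjamini-Hochberg over all 10789 genes tested), at adjusted p from 0.472 to 0.978. Of all genes tested 0.148% passed, so 0 of 8 is no result about the members. At an unadjusted p under 0.05 there were also 0 of 8, against 11.7% of all genes, and DESeq2 and limma-voom each called 0. No member had group ranges of CPM that did not overlap, against 3.35% of genes tested. The median log2 difference of the 8 was 0.16, beside 0.01 over all genes. Fewer cells of a kind and less RNA per cell cannot be told apart in such bulk libraries.

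The members spanned a wide range of levels, and N-cadherin stood far above the rest. Per kilobase of the longest transcript, the means over 10 libraries were 35.8 CPM for Cdh2, 8.10 for Zeb1, 7.84 for Snai1, 4.82 for Esrp2, 3.29 for Zeb2 and 1.67 for Snai2. Below them came Esrp1 at 0.4996, Grhl2 at 0.411 and Ovol1 at 0.207 CPM per kilobase, while Twist1 had no count. Cdh2 exceeded Zeb1 in 10 of 10 libraries and Snai1 exceeded Esrp2 in 10 of 10. Zeb1 exceeded Snai1 in only 6 of 10 and Esrp1 exceeded Grhl2 in 5 of 10, so these neighbours in the order did not differ beyond their spread. Esrp2 exceeded Zeb2 in 8 of 10, Zeb2 exceeded Snai2 in 9, Snai2 exceeded Esrp1 in 9 and Grhl2 exceeded Ovol1 in 9.

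**Figure D1:**
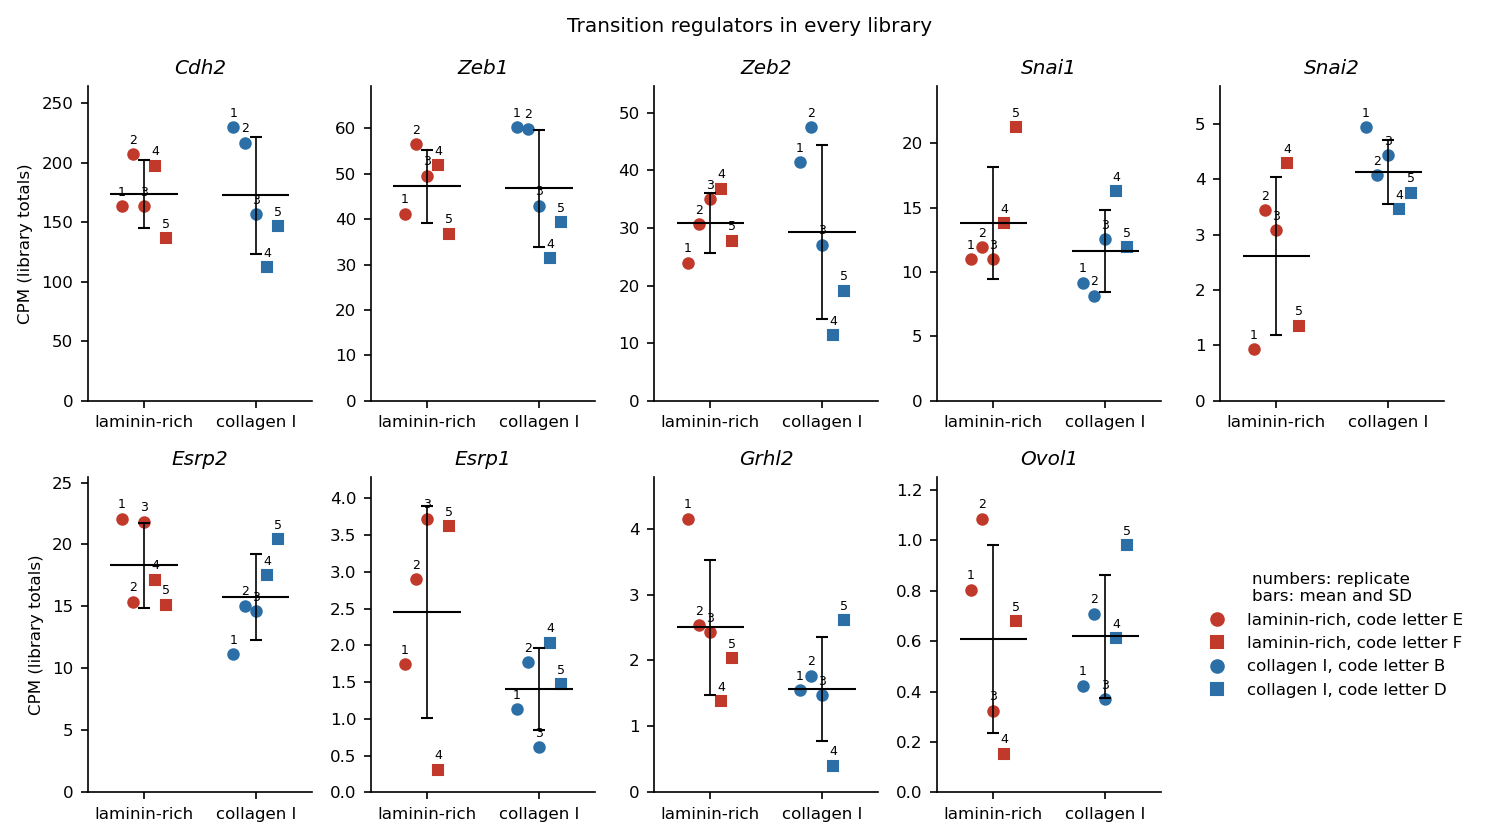
Each panel plots 1 member in CPM (counts scaled by the library total, linear axis from 0), with the 5 laminin-rich libraries at the left and the 5 collagen I libraries at the right; digits are replicate numbers, circles and squares are the code letters of the libraries, and bars are the mean and SD. In every panel the groups overlap, and Zeb2 spreads from 11.4 to 47.5 CPM within collagen I alone. Twist1, at 0 in all libraries, is not drawn.

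Zeb1, a zinc-finger repressor of Cdh1, was one of the most abundant of the factors (chr18:5591860-5775467, GRCm38). It stood at 41.2, 56.5, 49.5, 51.9 and 36.8 CPM in laminin replicates 1 to 5, against 60.3, 59.9, 42.9, 31.3 and 39.4 CPM in collagen replicates 1 to 5. Collagen held both the highest and the lowest libraries, and the laminin values lay between them. The means were 47.2 ± 8.01 CPM in laminin and 46.8 ± 12.9 CPM in collagen (SD, n = 5 each). The log2 difference was 0.02 (SE 0.19), with a 95% interval from -0.38 to 0.42 (edgeR adjusted p = 0.973), which spans folds of 0.770 to 1.34.

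Zeb2, its close relative (chr2:44983632-45117395), showed the widest scatter among the members with more than 50 counts in every library. Its levels were 23.97, 30.6, 34.97, 36.8 and 27.8 CPM in laminin, against 41.4, 47.5, 27.1, 11.4 and 19.1 CPM in collagen. The laminin libraries again lay inside the range of the collagen ones. The means were 30.8 ± 5.21 CPM in laminin and 29.3 ± 15.0 CPM in collagen (SD, n = 5 each). Its log2 difference was 0.08 (SE 0.30), with a 95% interval from -0.58 to 0.74 (edgeR adjusted p = 0.944).

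Cdh2, the N-cadherin of mesenchymal and neural cells, is also made by some epithelia (chr18:16588877-16809246). It was at 163, 207, 164, 198 and 137 CPM in laminin, against 230.0, 217, 157, 113 and 147 CPM in collagen. Its order among the collagen libraries resembled that of Zeb1, with replicates 1 and 2 high and replicate 4 lowest. The means were 174 ± 28.7 CPM in laminin and 173 ± 49.5 CPM in collagen (SD, n = 5 each). The log2 difference was 0.02 (SE 0.19), with a 95% interval from -0.38 to 0.43 (edgeR adjusted p = 0.978). The differences of Zeb1, Zeb2 and Cdh2 were so close to 0 that their sign changed in several alternatives, always without passing when it turned negative.

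The collagen libraries that stood low in these 3 genes share a code letter in the library descriptions, whose meaning is not stated. Letter B marks collagen replicates 1 to 3 and D marks 4 and 5, while E marks laminin replicates 1 to 3 and F marks 4 and 5. Within collagen, Zeb2 was lower in D, at 11.4 and 19.1 CPM, than in B, at 27.1 to 47.5 CPM. The log2 difference was -1.34 (SE 0.28, 95% interval -1.95 to -0.72), and Zeb2 passed (edgeR adjusted p = 0.0277). It was the single member called of 8, beside 15.8% of all genes called in either direction and 10.4% called lower, a share close to the background. DESeq2 called 3 members in this contrast, beside 22.8% of genes.

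Zeb1 and Cdh2 gave similar but smaller differences between the letters and did not pass in edgeR. Zeb1 was at 31.3 and 39.4 CPM in D and 42.9 to 60.3 CPM in B (log2 difference -0.63, SE 0.21, edgeR adjusted p = 0.0562). Cdh2 was at 113 and 147 CPM in D and 157 to 230.0 CPM in B (log2 difference -0.65, SE 0.21, edgeR adjusted p = 0.0519). Snai1, with the shortest transcript of the 8, differed the other way, at 11.9 and 16.3 CPM in D and 8.15 to 12.5 CPM in B (log2 difference 0.48, SE 0.26, edgeR adjusted p = 0.204). Between letters F and E within laminin, 0 of 8 members passed in edgeR and 0% of all genes did. At an unadjusted p under 0.05 there was 1 member, Snai1 (0.60, SE 0.26), against 3.84% of genes, and DESeq2 called 0 members. The Zeb2 call between D and B was lost without collagen replicate 1 (edgeR adjusted p = 0.132), 2 (0.110) or 4 (0.411).

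The length of the transcript moved with the values of Zeb2, Zeb1, Cdh2 and Snai1, but it did not order all members. Libraries differed in how log2 CPM depended on transcript length, with slopes per doubling of length of -0.37 and -0.19 in the D libraries and -0.06 to 0.18 in the B libraries. In laminin the slopes ran from -0.12 to 0.16. The longest transcript is 9124 nt for Zeb2, 5801 nt for Zeb1 and 4843 nt for Cdh2, against 1621 nt for Snai1. With a fitted trend on length and GC content removed from each library, the D minus B log2 difference was -0.51 for Zeb2 (edgeR adjusted p = 0.0787), -0.14 for Zeb1, -0.42 for Cdh2 and -0.05 for Snai1. Before and after this removal, Grhl2 (4947 nt) gave -0.01 and 0.19, and Snai2 (2021 nt) gave -0.32 and -0.33. Esrp1 (3864 nt) gave 0.61 and 0.70, and Esrp2 (3536 nt) gave 0.47 and 0.29. In the fit with the trend removed, 0 of 8 members passed in edgeR, beside 4.23% of all genes. The matrix difference with the trend removed was 0.00 for Zeb2 (95% interval -0.30 to 0.29), -0.07 for Zeb1 (-0.27 to 0.13) and -0.05 for Cdh2 (-0.33 to 0.24).

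**Figure D2:**
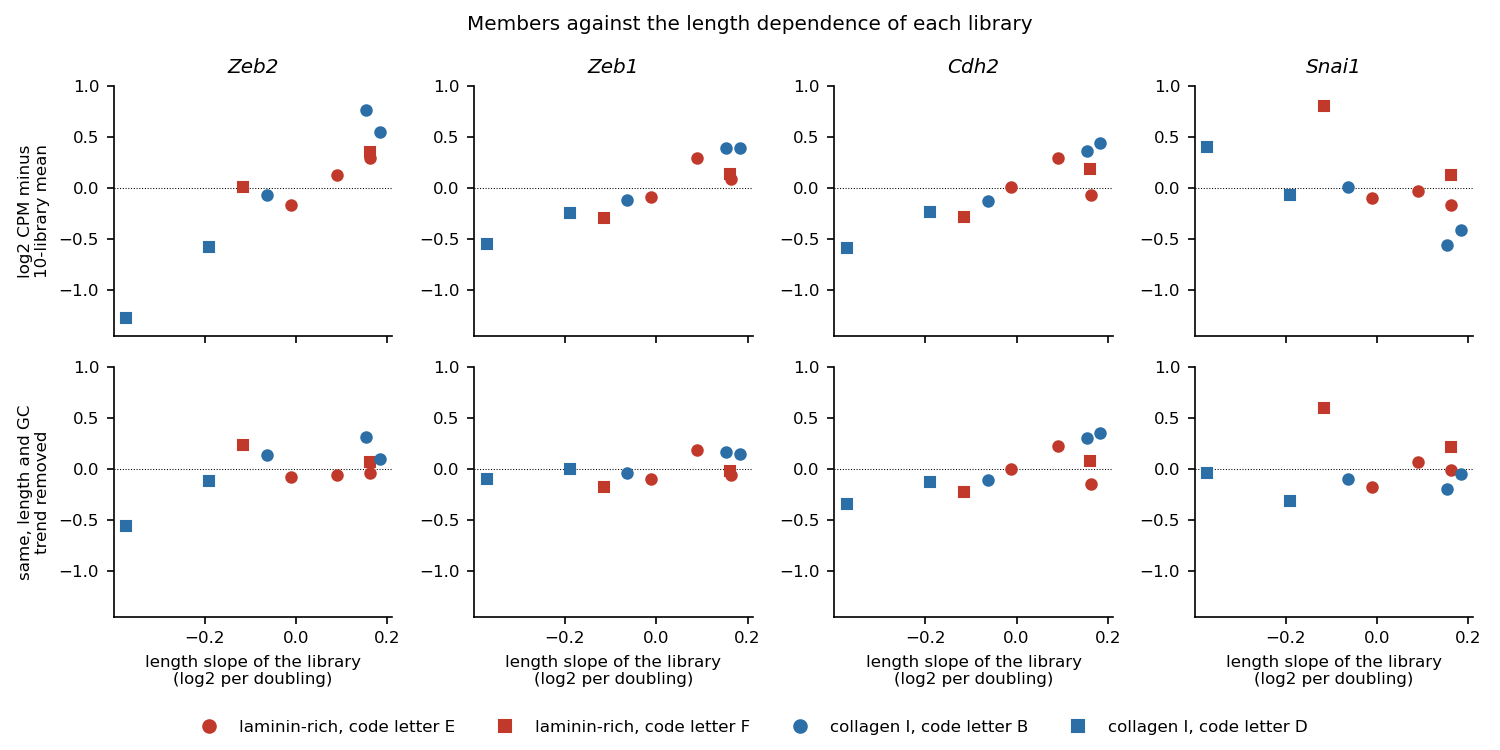
The upper panels plot the log2 CPM of Zeb2, Zeb1, Cdh2 and Snai1 as the deviation from the 10-library mean against the length slope of each library (log2 units per doubling of transcript length); the lower panels plot the same deviations after removal of the fitted length and GC trend. Red points are laminin-rich and blue points collagen I, with squares for code letters F and D. Zeb2 runs from -1.28 in collagen replicate 4 to 0.76 in collagen replicate 2 above, and from -0.56 to 0.32 below.

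Because each letter occurs in a single matrix, letter and matrix cannot be told apart, and no within-letter value of the matrix difference exists. Without the 3 letter B libraries, the collagen group was the D pair alone and Zeb2 passed as higher in laminin, at a log2 difference of 1.00 (edgeR adjusted p = 0.0220). It was the single member of 8 called, beside 18.9% of all genes in that fit. Without the letter D libraries the difference of Zeb2 was -0.31 (edgeR adjusted p = 0.520). The direction for Zeb2 thus turned on which collagen libraries were used.

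Snai1 (chr2:167538195-167542814), the factor best known for the direct repression of Cdh1, was at 10.98, 11.9, 11.01, 13.8 and 21.2 CPM in laminin, against 9.17, 8.15, 12.5, 16.3 and 11.9 CPM in collagen. Laminin replicate 5 was the highest library and the other laminin libraries fell among the collagen ones. The means were 13.8 ± 4.32 CPM in laminin and 11.6 ± 3.19 CPM in collagen (SD, n = 5 each). The log2 difference was 0.26 (SE 0.23), with a 95% interval from -0.24 to 0.76 (edgeR adjusted p = 0.714). Without laminin replicate 5 it was 0.05 (SE 0.20, edgeR adjusted p = 0.932), and with other single libraries left out it reached 0.40.

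Snai2 (chr16:14705852-14709385), also called Slug, was the only tested member with a lower fitted level in laminin. It was at 0.937, 3.44, 3.08, 4.29 and 1.36 CPM in laminin, against 4.94, 4.07, 4.43, 3.46 and 3.76 CPM in collagen. In counts these were 7, 19, 19, 28 and 6 reads in laminin, against 35, 23, 36, 17 and 23 in collagen. Laminin replicates 1, 2, 3 and 5 lay below every collagen library and laminin replicate 4 lay inside their range. The fitted log2 difference was -0.65 (SE 0.33), with a 95% interval from -1.37 to 0.08 (edgeR adjusted p = 0.472). Its size turned on single laminin libraries: it was -0.42 without laminin replicate 1 (SE 0.28, edgeR adjusted p = 0.566) and -0.92 without laminin replicate 4 (SE 0.33, edgeR adjusted p = 0.322).

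Twist1 (chr12:33957671-33959829), a helix-loop-helix factor active in embryonic mesoderm and neural crest, had a count of 0 in all 10 libraries. That allows a level of up to 0.369 CPM in the deepest library and 0.678 CPM in the shallowest.

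On the epithelial side, Grhl2 and Esrp1 were low in all libraries and Ovol1 was near the limit of detection. Grhl2 (chr15:37233036-37363569), a grainyhead factor that activates Cdh1 and other junction genes, was at 4.15, 2.53, 2.43, 1.38 and 2.03 CPM in laminin, against 1.55, 1.77, 1.48, 0.407 and 2.61 CPM in collagen. These levels rest on 31, 14, 15, 9 and 9 reads in laminin, against 11, 10, 12, 2 and 16 in collagen. Laminin replicate 1 was the highest and collagen replicate 4 the lowest, with the rest overlapping. In edgeR the log2 difference was 0.70 (SE 0.40), with a 95% interval from -0.16 to 1.55 (edgeR adjusted p = 0.525). Without laminin replicate 1 it was 0.39 (SE 0.39), and without the letter E libraries it was 0.06 (SE 0.55).

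Esrp1 (chr4:11331933-11386783) was at 1.74, 2.90, 3.72, 0.306 and 3.62 CPM in laminin, against 1.13, 1.77, 0.615, 2.04 and 1.47 CPM in collagen. The reads were 13, 16, 23, 2 and 16 in laminin, against 8, 10, 5, 10 and 9 in collagen. Laminin replicates 2, 3 and 5 lay above every collagen library, while laminin replicate 4 was the lowest of all 10. Esrp1 had a log2 difference of 0.83 (SE 0.51), with a 95% interval from -0.27 to 1.93 (edgeR adjusted p = 0.562). Without laminin replicate 4 it was 1.12 (SE 0.36, edgeR adjusted p = 0.241), while it was 0.46 without the letter B libraries and 0.38 without the letter E libraries.

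Esrp2 (chr8:106130319-106136974) carried most of the reads of the pair, and its level per kilobase was 4.58 to 13.9 times that of Esrp1 in laminin replicates 1, 2, 3 and 5 and 9.29 to 26.01 times in collagen libraries. In laminin replicate 4, where Esrp1 had 2 reads, it was 61.2 times. It was at 22.1, 15.4, 21.9, 17.2 and 15.1 CPM in laminin, against 11.2, 15.1, 14.6, 17.5 and 20.4 CPM in collagen. Laminin replicates 1 and 3 were highest, collagen replicate 1 was lowest and the others overlapped. Esrp2 had a log2 difference of 0.25 (SE 0.18), with a 95% interval from -0.15 to 0.64 (edgeR adjusted p = 0.638), which leaves folds above 1.56 outside the interval. With single libraries left out it was as low as 0.12, without collagen replicate 1.

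Ovol1 (chr19:5549136-5560646), a zinc-finger factor known to repress Zeb1, had 6, 6, 2, 1 and 3 reads in laminin, against 3, 4, 3, 3 and 6 in collagen, and did not pass the filter. The sums were 18 reads in laminin and 19 in collagen, and a difference was not detectable at this depth. With no filter its log2 difference was -0.01 with a 95% interval from -1.12 to 1.10.

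**Figure D3:**
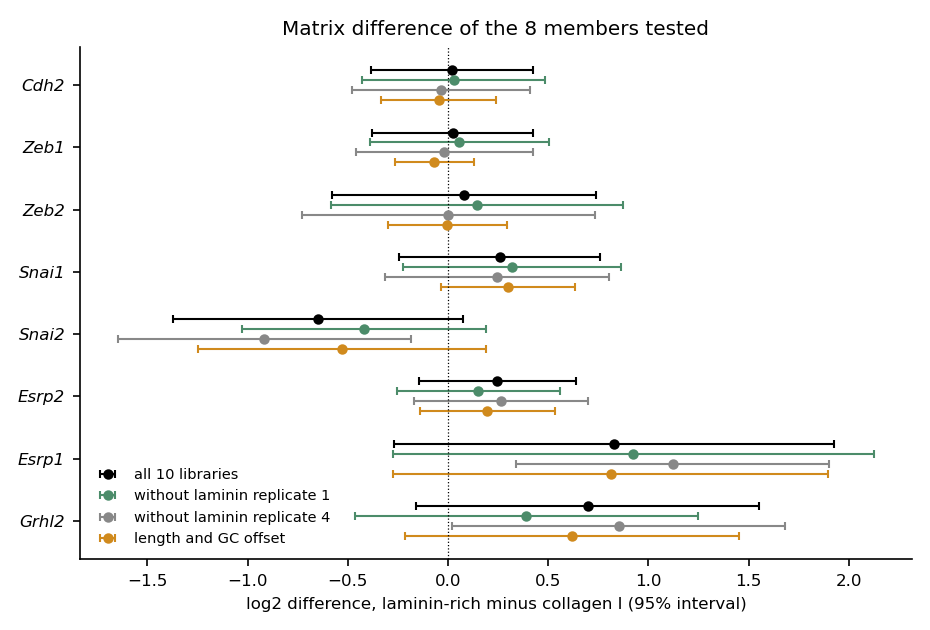
Points are log2 differences of the 8 members tested, laminin-rich minus collagen I, with 95% intervals from edgeR: all 10 libraries in black, without laminin replicate 1 in green, without laminin replicate 4 in grey, and in ochre after removal of the fitted trend on length and GC content. All black, green and ochre intervals cross 0. The grey intervals of Snai2 (-1.65 to -0.19), Grhl2 (0.02 to 1.68) and Esrp1 (0.34 to 1.90) do not. Intervals are not adjusted for the number of genes, and 0 of 8 members passed in the grey fit. Snai2 stands at -0.42 in green and -0.92 in grey, and Grhl2 at 0.39 in green and 0.85 in grey.

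In a group of 5 libraries, a rank at or next to the edge is common. Laminin replicate 1, for example, had the lowest Snai1, Snai2 and Zeb2 and the highest Grhl2 and Esrp2 of its group. Of the 5 laminin libraries, laminin replicate 4 had the lowest Esrp1, Grhl2 and Ovol1 and the highest Snai2 and Zeb2. Its Snai1, Zeb1 and Cdh2 were second highest, and its Esrp2 was at the median (17.2 CPM). It also had the lowest Cdh1 (395 CPM, the rest of the laminin libraries 474 to 814 CPM) and the lowest Epcam (39.8 CPM, the rest 51.3 to 78.0 CPM), while Vim (1200 CPM, the rest 1009 to 1585 CPM) was second lowest. Its fibroblast and stellate marker sum was 58.7 CPM, against a median of 29.3 CPM over the laminin libraries, and the part of this in the result was not tested. Without it, 0 of 8 members passed in edgeR, beside 0.333% of all genes. Leaving out any other single library gave 0 members called.

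The cadherins and other products of the transition did not pass either. Cdh1, the E-cadherin of epithelial junctions, was at 814, 539, 635, 395 and 474 CPM in laminin, against 436, 543, 437, 356 and 399 CPM in collagen (log2 difference 0.42, SE 0.19, edgeR adjusted p = 0.422). Per kilobase, Cdh2 stood at 0.184 to 0.457 of the level of Cdh1 in laminin libraries and at 0.289 to 0.483 in collagen libraries, so Cdh1 was the more abundant cadherin in all 10. Epcam, an epithelial adhesion protein, averaged 62.9 ± 16.5 CPM in laminin and 52.3 ± 7.85 CPM in collagen (SD, n = 5 each). Its log2 difference was 0.29 (SE 0.19, edgeR adjusted p = 0.603). Vimentin (Vim), the mesenchymal intermediate filament, was abundant in both matrices, at 1330 ± 241 CPM in laminin and 1706 ± 196 CPM in collagen (log2 difference -0.34, SE 0.14, edgeR adjusted p = 0.383). Fibronectin (Fn1) was at 1754 ± 654 CPM in laminin and 1311 ± 275 CPM in collagen (0.43, SE 0.22, edgeR adjusted p = 0.467). Laminin replicate 4 held 2852 CPM of Fn1 and the rest of that group 1133 to 1698 CPM, and without it the difference was 0.18. That of Cdh1 was 0.24 without laminin replicate 1.

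In 7 lists of related genes, edgeR called 0 members in either direction, and limma-voom also called 0. The lists were chosen with earlier results of these data known, and they are described here by counts, medians and library means. At an unadjusted p under 0.05 the counts were 2 of 9 other mesenchymal factors, 3 of 10 other epithelial factors, 4 of 26 epithelial adhesion and keratin genes, 6 of 17 mesenchymal cytoskeleton and matrix genes and 2 of 8 splicing genes, with 0 of 10 in the TGF-beta signal and 0 of 10 among corepressors. Over all genes 1257 of 10789 had such a p, 723 higher and 534 lower in laminin. The 6 mesenchymal cytoskeleton and matrix genes split into 3 higher and 3 lower, and the 2 other mesenchymal factors into 1 and 1. Those of the epithelial and splicing lists were all higher. DESeq2 called 5 genes of the lists, beside 1.94% of all genes tested: Foxq1, Spint1, Dsp and Rbm47 higher and Loxl2 lower. Laminin replicate 4 had the lowest mean log2 deviation of its group in other epithelial factors (-0.19) and in epithelial adhesion and keratin genes (-0.28). It had the highest in other mesenchymal factors (0.27), mesenchymal cytoskeleton and matrix (0.39), splicing (0.35) and TGF-beta genes (0.14). Among corepressors it was in the middle (0.01). The cause was not tested.

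Other epithelial factors had a median log2 difference of 0.34, with 9 of 10 above 0, beside 0.01 over all genes with 5580 of 10789 above 0. Ehf, an ETS factor of epithelia, was at 31.9 ± 12.4 CPM in laminin and 16.5 ± 4.34 CPM in collagen (SD, n = 5 each; log2 difference 0.95, SE 0.29, edgeR adjusted p = 0.239). Laminin replicate 1, at 11.8 CPM, lay below all collagen libraries, and without it Ehf passed (1.16, edgeR adjusted p = 0.0286), beside 0.591% of all genes in that fit. Grhl1, a relative of Grhl2, gave 0.67 (SE 0.27, edgeR adjusted p = 0.348).

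Epithelial adhesion and keratin genes had a median of 0.14, with 19 of 26 above 0. Spint1, an inhibitor of the epithelial protease matriptase, was at 31.9 ± 7.87 CPM in laminin and 17.8 ± 3.75 CPM in collagen (log2 difference 0.86, SE 0.20, edgeR adjusted p = 0.109). Desmoplakin (Dsp), which ties keratins to desmosomes, was at 287 ± 63.9 CPM in laminin and 160 ± 49.8 CPM in collagen (0.85, SE 0.21, edgeR adjusted p = 0.133). Spint1 passed with the length and GC offset (0.87, edgeR adjusted p = 0.0360), beside 0.964% of all genes, and Dsp as a mean per code letter (0.85, edgeR adjusted p = 0.0386), beside 0.918%. At the other end stood the keratins Krt7, at -1.002 (SE 0.47, edgeR adjusted p = 0.437), and Krt18, at -0.30 (SE 0.20, edgeR adjusted p = 0.606). Krt7 passed in edgeR without the letter B libraries (-1.58, adjusted p = 0.0357), a fit that called 18.9% of all genes.

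Mesenchymal cytoskeleton and matrix genes had a median of 0.04, with 9 of 17 above 0. Loxl2, a lysyl oxidase that crosslinks collagen, was at 191 ± 49.4 CPM in laminin and 323 ± 17.2 CPM in collagen, with group ranges that did not overlap (log2 difference -0.74, SE 0.17, edgeR adjusted p = 0.109). Loxl2 passed in edgeR with the offset (-0.86, adjusted p = 0.0433) and without laminin replicate 1 (-0.89, adjusted p = 0.0308). Lgals1, a galectin, gave -0.40 (SE 0.17, edgeR adjusted p = 0.374). Tenascin C (Tnc) gave 1.05 (SE 0.31, edgeR adjusted p = 0.230), with 240.0 CPM in laminin replicate 4 and 66.4 to 89.8 CPM in the rest of that group. Collagen libraries held 40.1 to 64.5 CPM, so its group ranges did not overlap either. Of all genes tested, 3.35% had ranges that did not overlap. Without laminin replicate 4, Tnc gave 0.54 (edgeR adjusted p = 0.174). Col5a1, a chain of collagen V, gave 0.67 (SE 0.30, edgeR adjusted p = 0.407), and 0.29 without laminin replicate 4.

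Among the other mesenchymal factors, with a median of 0.04, the largest differences were those of Foxq1 (0.38, SE 0.10, edgeR adjusted p = 0.178), Foxc1 (0.35, SE 0.24), Prrx1 (-0.61, SE 0.37) and Hmga2 (-0.42, SE 0.15). Foxq1 was at 134 ± 13.4 CPM in laminin and 104 ± 8.85 CPM in collagen, with group ranges that did not overlap, as in 3.35% of all genes tested. Of the splicing genes, the receptor Fgfr2, a target of the ESRP proteins, gave 0.97 (SE 0.36, edgeR adjusted p = 0.327), with 118 CPM in laminin replicate 4 and 20.6 to 50.02 CPM in the rest of that group. Without that library Fgfr2 gave 0.45. Rbm47, an RNA-binding protein, gave 0.40 (SE 0.11, edgeR adjusted p = 0.185), while Cd44 gave -0.17 (SE 0.12) and Enah -0.09 (SE 0.22). Gene counts do not show which isoform was made.

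The TGF-beta genes, which lie upstream of these factors, had a median of -0.05. The ligands Tgfb2 and Tgfb3 gave -0.55 (SE 0.28) and -0.42 (SE 0.29), and the inhibitors Skil and Smad7 gave 0.18 (SE 0.20) and 0.17 (SE 0.11). Corepressors that Snai and Zeb proteins recruit had a median of 0.01, with Rcor1 at 0.26 (SE 0.34), Ctbp1 at 0.14 (SE 0.09), the demethylase Kdm1a at -0.21 (SE 0.10) and the deacetylase Hdac1 at -0.14 (SE 0.09). The edgeR adjusted p of these 8 genes ran from 0.449 to 0.815. Without the letter B libraries, Rcor1 (1.26, adjusted p = 0.0220), Skil (0.62, adjusted p = 0.0338), Dsp (1.12, adjusted p = 0.0204), Loxl2 (-0.82, adjusted p = 0.0334) and Lgals1 (-0.72, adjusted p = 0.0212) passed in edgeR. That fit, with the D pair alone as the collagen group, called 18.9% of all genes.

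**Figure D4:**
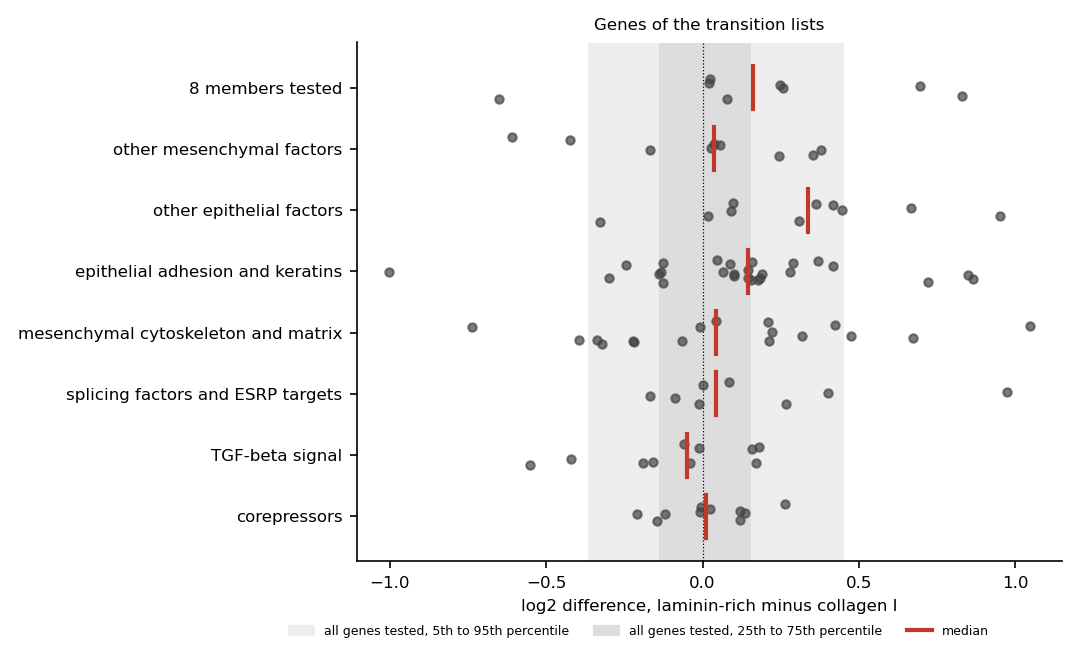
Each point is the log2 difference of 1 gene, laminin-rich minus collagen I, for the 8 members tested and the 7 lists of related genes; red bars are medians and the grey bands span the 25th to 75th and the 5th to 95th percentile of all genes tested. The members have a median of 0.16, and the other epithelial factors, at 0.34, have the highest median of the rows drawn.

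The genes whose levels over the 10 libraries were most like those of a member were sought among 9892 genes with a mean of at least 5 CPM, for the 5 members at that level. The closest to Zeb1 were Dip2c (Pearson r = 0.993) and Sel1l (0.985), and the closest to Cdh2 were Dock9 (0.977) and Sel1l (0.975). The closest to Zeb2 was Rbm26 (0.995). For Snai1 they were Hdhd3 (0.944) and R3hdm4 (0.933), and for Esrp2 Cs (0.941) and Myrf (0.936). These points share libraries, depth and the length trend described above, and with that trend removed the values of these genes were 0.595 to 0.964. Sel1l was then the most like Cdh2 of the 9892 genes searched (0.964), while Dock9 fell to rank 1004 for Cdh2 (0.619). Myrf fell to rank 249 for Esrp2 (0.595), and the other likenesses named stood at ranks 4 to 31.

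The counting's strand setting is not given, so values are uncertain for genes whose exons overlap an antisense gene. Among members this holds for Zeb1 (Gm10125), Zeb2 (Zeb2os and Gm27761), Grhl2 (Gm16136), Esrp1 (Gm26663), Esrp2 (Nfatc3 and 1810019D21Rik) and Ovol1 (Gm31166). It also holds for the named genes Dsp, Loxl2, Tnc, Col5a1, Fn1, Foxq1, Hmga2, Krt7, Rbm47, Tgfb2 and Tgfb3.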

How the data were processed

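The authors deposited 1 table of raw read counts per gene symbol, 1 column per library, with 18407 genes and whole numbers only. Per the labels' protocols, spheroids were freed from the matrix on ice and stranded poly(A) libraries were made from 30 ng of RNA. Per the submitters' processing notes the build was GRCm38 and DESeq2 was used. The sources used here do not give the aligner, counter, strand setting or annotation.

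CPM values are deposited counts scaled by the library total. The matrices were compared with edgeR 4.0.16 in R 4.3.3 (quasi-likelihood F test, TMM factors, default filterByExpr, matrix as the only term, two-sided), with Benjamini-Hochberg adjustment over all 10789 genes tested and a threshold of 0.05. The SE is the size of a log2 difference over the square root of F, and 95% intervals use the fit's degrees of freedom. Code letters were compared in the same way with the 4 letters as groups. Figures and likeness use log2 CPM with a prior count of 2. A per-library spline on transcript length and GC content (5 degrees of freedom each) gave the offset fit. Since the spline takes no account of the matrix, a matrix effect that runs with length or GC content is lost with it. Positions and longest transcripts came from GENCODE M21, matched by symbol for 18338 genes. The listed symbols Mpp5, Ctgf and Qk were not analysed here.

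Members and lists were chosen with earlier results of these data known. All members were named, as were, per list, called genes and the 2 highest and 2 lowest log2 differences, with Cdh1, Epcam, Vim and Fn1. For members at 5 CPM or more, the 2 genes with the highest Pearson r were named, and the likeness with the trend removed was chosen after seeing the data. A few genes that this rule or the marker lists name are not reported here. The most similar libraries of a group, collagen replicates 1 and 2, still differed beyond sampling noise (chi-square 3.33 per degree of freedom), so none was merged. Alternatives were DESeq2 1.42.0, limma-voom (limma 3.58.1), 2 other scalings, 2 other filters, a replicate block, a mean per letter, and libraries or letters left out. The edgeR comparison of the matrices was tested on simulated counts, and the other steps were not.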

Additional observations from a re-analysis of the deposited data

Results flagged for a closer look

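In 94 groups of 5 libraries (members, named genes and list means), 3 held 1 library apart from the rest by most of the group's range. Such a gap can be small in itself. About 5% of groups, or 4.7, would hold such a library by chance. None was a member. Ehf was at 3.66 log2 CPM in laminin replicate 1, against 5.02 in the next laminin library. Tnc was at 7.88 log2 CPM in laminin replicate 4, against 6.48 in the next. Hdac1 was at 7.66 log2 CPM in collagen replicate 3, against 7.56 in the next collagen library.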

How the results depend on the processing

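The count of members called between the matrices was 0 in all alternatives but 1, the fit without code letter B, where it was 1 (Zeb2, log2 difference 1.00). The count of all genes called, 16 in the fit reported, was 209 with DESeq2, 29 with no filter, 0 with the replicate block, 99 as a mean per code letter, 104 with the length and GC offset, and 2083, 5, 1 and 5 without letters B, D, E and F. It ran from 0 to 64 with single libraries left out. The count was 64 and 36 when laminin replicate 1 and 4 were omitted, 5 when replicate 3 or 5 was, and 0 when replicate 2 was. Omitting collagen replicate 2 gave 2, and omitting 3 or 5 gave 0. The cause was not tested.

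No pairing of libraries by replicate number was seen. The correlation of same-numbered libraries' deviations ran from -0.327 to 0.483 over the 5 numbers. Laminin libraries correlated best with their own number in 0 of 5 cases and collagen libraries in 1 of 5. The length and GC trend was not removed from these deviations, so a pairing could be missed. With the replicate block, 0 of 8 members passed.

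With single libraries left out, log2 differences between the matrices ran from -0.0863 to 0.12 for Zeb1, -0.12 to 0.30 for Zeb2, -0.10 to 0.13 for Cdh2 and -0.30 to 0.0067 for Enah. Without letter D they were -0.19 for Zeb1, -0.31 for Zeb2, -0.20 for Cdh2, -0.0614 for Skil and -0.15 for Rcor1. Without letter E they were -0.10 for Zeb1, -0.0699 for Cdh2, -0.0119 for Skil, -0.0162 for Rcor1, -0.0131 for Cdh1 and 0.051 for Enah. Without letter B they were -0.0468 for Snai1, -0.046 for Esrp2, 0.10 for Prrx1 and 0.27 for Enah. Without letter F Snai1 gave -0.0275. With the offset Zeb1 gave -0.0688, Zeb2 -0.0034 and Cdh2 -0.0454, with no filter Cdh2 gave -0.0030, and as a mean per letter Enah gave 0.0253. Of 39 genes followed, 21 kept their direction and their side of the threshold throughout.

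For letter D minus B, the count of members called was 1, and it was 3 with DESeq2 or no filter and 0 with the offset. With single letter B libraries left out it was 0 to 3. Of all genes, 15.8% were called in the fit reported, 22.8% with DESeq2 and 4.23% with the offset. That share is not given here for the fits with no filter or with libraries left out, so their counts are no result about the members. Snai1 gave -0.0531 with the offset. Grhl2 gave 0.0034 with library totals and 0.19 with the offset, and -1.91 to 0.69 with single libraries left out. Without collagen replicate 4 or 5, D was a lone library whose spread was taken from the other letters, and the same holds for F without laminin replicate 4 or 5. For F minus E with single libraries left out, the ranges were -0.81 to 0.79 for Snai2, -0.40 to 0.0372 for Zeb1, -0.0902 to 0.26 for Zeb2, -0.38 to 0.10 for Cdh2 and -3.13 to 0.40 for Esrp1. Depth limits Ovol1, Grhl2, Esrp1 and Snai2 most, at 1 to 36 reads per library.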
